A study of Mus musculus with 12 samples.

Results

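Cpt1a, Ehhadh and Etfa are genes of fatty acid oxidation, and their Rev-Erbα sites in brown adipose tissue were taken as every row of the peak lists annotated to one of these 3 genes. This gave 13 of 13410 rows, of which 9 were among the 11227 of the 4 °C list and 4 among the 2183 of the 29 °C list. The chromatin came from C57BL/6 mice kept for 1 week at 4 °C, a chronic cold challenge, or at 29 °C, which is thermoneutral for mice. In HA-RevErbα mice the Rev-Erbα protein bears an HA tag, a short epitope, which wild-type (WT) mice lack. Both genotypes were put through the same pull-down with anti-HA beads, so the WT signal is the background of the method. HA-RevErbα mice gave 4 libraries and WT mice 2 libraries at each temperature. The sources used here do not give the age of the mice or how the tag was introduced, nor whether a library is 1 animal. Pull-down values at peaks cannot check the labelled tissue.

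Rev-Erbα, encoded by Nr1d1, is a nuclear receptor of the circadian clock that binds DNA and represses genes by recruiting corepressor complexes. In fatty acid oxidation, acyl chains are passed into mitochondria as carnitine esters and shortened step by step, and the electrons released are handed to the respiratory chain. Brown fat burns fatty acids in this way to make heat. CPT1A is the liver-type carnitine palmitoyltransferase of the outer mitochondrial membrane, the entry step that malonyl-CoA inhibits. EHHADH is the bifunctional hydratase and dehydrogenase of peroxisomal oxidation. ETFA is the alpha subunit of the electron transfer flavoprotein, which takes electrons from the acyl-CoA dehydrogenases.

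The libraries held 27.0 to 37.3 M (mega) aligned reads. All site values come from pools, 1 per genotype and temperature, so no difference between temperatures has a replicate check and no test between them was made. The unit is FPKM, the reads per kilobase of the 200 bp peak window per M reads of the pool, with 0.01 added by the authors. It is a density of pulled-down DNA and not a level of gene expression. The FPKM steps gave back whole reads and pools of 63.8 M (HA-RevErbα 4 °C), 60.8 M (HA-RevErbα 29 °C), 27.1 M (WT 4 °C) and 25.1 M (WT 29 °C) reads. Ratios are followed by their 95% Clopper-Pearson intervals (exact), which cover counting error only and hold nothing of the spread between animals. Positions follow the authors' files (build mm9), and the gene of a site is the one the authors annotated.

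Each of the 3 genes had sites in the cold list, but Cpt1a had none in the list of 29 °C. The cold list held 4 sites of Cpt1a, 2 of Ehhadh and 3 of Etfa, and the list of 29 °C held 2 of Ehhadh and 2 of Etfa. All 4 of the latter overlapped a cold site, and their windows were shifted by 4 to 13 bp. Thus 4 of the 9 cold sites were shared, against 14.9% of all cold windows. All 9 windows were annotated as intronic, against 47.8% of the cold list. None lay at a promoter: the distances from the annotated transcription start site ran from 1.41 to 90.3 kb, all downstream.

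**Figure D1:**
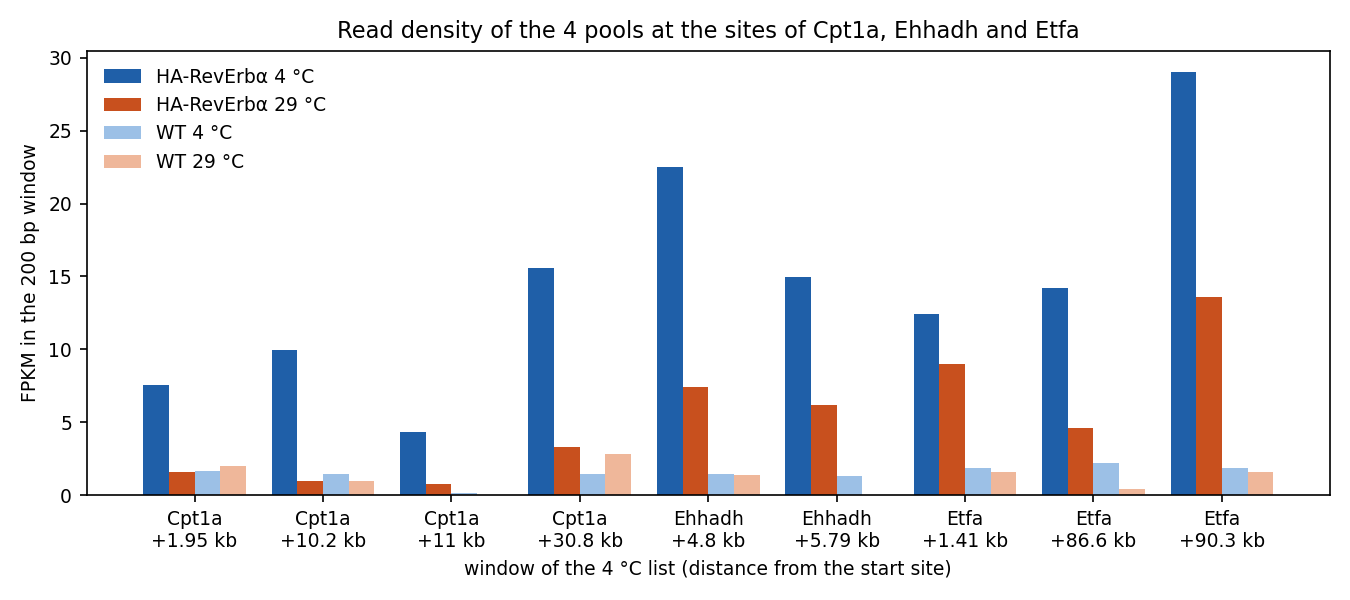
Bars give the FPKM of the 4 pools (vertical axis) in each of the 9 windows of the 4 °C list (horizontal axis), with 1 pooled value per bar and no error. The 29 °C bars of HA-RevErbα at Cpt1a run from 0.75 to 3.30 FPKM, close to the WT bars, while those at Ehhadh and Etfa run from 4.62 to 13.58 FPKM.

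Cpt1a carried its strongest site in intron 3 of 18, 30.8 kb from the start site (chromosome 19, 3353959 to 3354159). Its peak score, the authors' own measure (window reads scaled to a pool of 10 M), was 31.2, which placed it 931st of 11227 cold sites. The HA-RevErbα pools had 15.61 FPKM at 4 °C and 3.30 FPKM at 29 °C, and the WT pools 1.48 and 2.80 FPKM. The cold pool therefore stood far above its WT pool, and the 29 °C pool near it. The 4 °C to 29 °C ratio was 4.74 (3.36 to 6.84).

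The remaining Cpt1a sites lay in intron 1. The site at 10.2 kb (3333366 to 3333566) had 9.97 FPKM at 4 °C and 1.0 FPKM at 29 °C, while the WT pools had 1.48 and 1.01 FPKM. Its ratio of 10.1 (5.58 to 20.0) was the largest of the 9 windows and larger than that of 98.0% of the cold list. This ratio rests on 127 reads at 4 °C and 12 at 29 °C. The site at 1.95 kb (3325147 to 3325347), which the authors' detailed annotation marks as CpG, had 7.54 and 1.57 FPKM, against 1.67 and 2.0 FPKM in WT, with a ratio of 4.82 (2.92 to 8.35). The weakest of the 9, at 11.0 kb (3334214 to 3334414), had 4.32 and 0.75 FPKM and a ratio of 5.83 (2.86 to 13.4). It lies 848 bp from the site at 10.2 kb and had 1 read in the WT pool at 4 °C and 0 at 29 °C, where 3 reads would be 0.598 FPKM. All 4 Cpt1a windows thus had more HA-RevErbα signal in the cold pool, and their ratios, from 4.74 to 10.1, had overlapping intervals.

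At 29 °C the Cpt1a windows did not stand above WT beyond counting error. Summed over the 4 windows (800 bp), the HA-RevErbα pool held 80 reads and the WT pool 29, a density ratio of 1.14 (0.736 to 1.81). In the cold the same windows held 477 and 26 reads, a ratio of 7.81 (5.26 to 12.1). The windows at 1.95 and 10.2 kb, had slightly less HA-RevErbα than WT signal at 29 °C, as had 13.5% of cold windows. The windows were listed for their cold signal over WT 4 °C, which favours large ratios between temperatures. The WT density over these windows had a 4 °C to 29 °C ratio of 0.829 (0.469 to 1.46).

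Ehhadh had a pair of neighbouring sites in intron 1 of 6, and both were in each list. The stronger, 4.80 kb from the start site (chromosome 16, 21783005 to 21783205), scored 45.0 in the cold list, rank 312. The density was 22.52 FPKM at 4 °C and 7.41 FPKM at 29 °C, against 1.48 and 1.41 FPKM in the WT pools. The ratio of 3.04 (2.39 to 3.90) was close to the median of all cold windows, 3.05. It was above the 90th percentile, 2.98, of the 1670 cold windows shared with the 29 °C list, whose median was 1.88. The second site, 986 bp further into the gene at 5.79 kb (21782019 to 21782219), had 14.99 and 6.18 FPKM and a ratio of 2.43 (1.85 to 3.22). Its WT pools had 1.30 FPKM at 4 °C and 0 reads at 29 °C. At 29 °C the counting interval of HA-RevErbα over WT at this site had a lower limit of 8.18. At the stronger site the 29 °C signal was 5.30-fold that of WT (2.47 to 13.6). Both windows were listed at 29 °C for their signal over WT, so these values largely restate the list. The ratios between temperatures at the 2 Ehhadh sites had overlapping intervals.

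Etfa had the strongest site of the set and also the one whose signal differed least between temperatures. The strongest is annotated to Etfa at 90.3 kb from its start site but lies in intron 8 of 10 of the neighbouring gene Tmem266 (chromosome 9, 55269614 to 55269814). It scored 58.0 in the cold list, rank 144, and 28.3 in the list of 29 °C, rank 191 of 2183. The pools had 29.02 FPKM at 4 °C and 13.58 FPKM at 29 °C, against 1.85 and 1.60 FPKM in WT. The ratio was 2.14 (1.77 to 2.58).

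The Etfa site nearest the start, at 1.41 kb in intron 1 of 11 (55358537 to 55358737), had 12.40 FPKM at 4 °C and 8.97 FPKM at 29 °C, with 1.85 and 1.60 FPKM in WT. Its ratio of 1.38 (1.08 to 1.78) was the smallest of the 9, and only 4.1% of cold windows had a smaller one. Among the 1670 shared cold windows, of which it is 1, low ratios were common (10th percentile 1.08, median 1.88). The direction of the Etfa ratio depended on the scaling. With the pools scaled to equal WT reads at the shared sites it was 0.96, and with equal WT reads in the 29 °C list's windows 0.81.

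A further Etfa site, at 86.6 kb and again in intron 8 of Tmem266 (55273374 to 55273574), was in the cold list only. The pools held 14.20 FPKM at 4 °C and 4.62 FPKM at 29 °C, against 2.22 and 0.41 FPKM in WT, and a ratio of 3.08 (2.27 to 4.24). In either file a listed site exceeds WT by 3 FPKM or more and, within rounding, is at or above 4 times the WT value. This window met both limits at 29 °C as well, with 4.21 FPKM and 11.3 times the WT value, although no 29 °C peak was listed there. Of all 9557 cold windows without an overlapping 29 °C peak, 1.04% met both. The WT value at 29 °C rests on 2 reads, so the fold is poorly known.

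**Figure D2:**
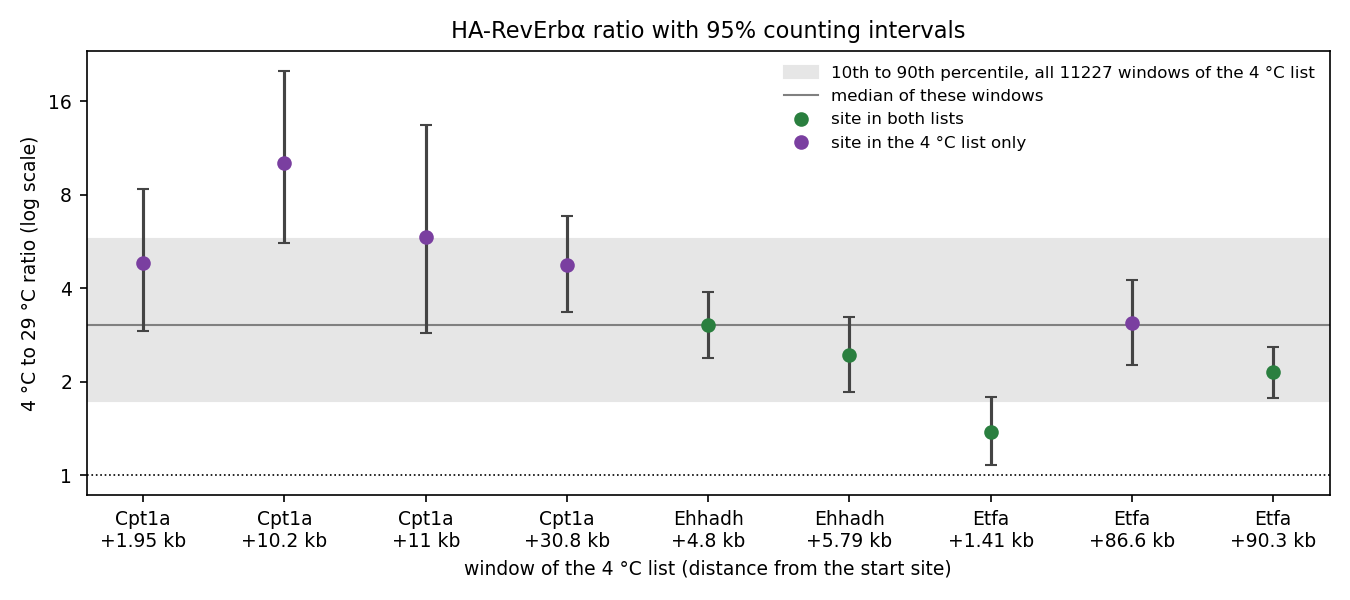
Points give the 4 °C to 29 °C ratio of HA-RevErbα density on a log axis for the 9 windows, with 95% counting intervals as bars, and the grey band spans 1.73 to 5.76, the 10th to 90th percentile of the 4 °C list. The 4 Cpt1a windows lie above the list median of 3.05, and the Etfa window at 1.41 kb lies below the band.

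Every one of the 9 windows had a ratio whose counting interval lay above 1, and 8 had a ratio of at least 2. Over the whole cold list these shares were 95.4% and 83.4%, so neither count sets the 9 windows apart. The counting interval of HA-RevErbα over WT at 29 °C lay above 1 at 5 of the 9, namely the 5 windows of Ehhadh and Etfa, against 41.5% of cold windows. Of these 5, the 4 shared windows were listed at 29 °C for their signal over WT, so this count largely restates the lists. Of the 3 windows annotated to Etfa, 2 lie in intron 8 of Tmem266 and hold most of its reads. Over its annotated windows, the ratio was 5.69 (4.48 to 7.30) for Cpt1a, 2.76 (2.31 to 3.32) for Ehhadh and 2.05 (1.80 to 2.34) for Etfa. With equal WT reads in the windows of the 29 °C list these ratios were 3.33, 1.62 and 1.20, and 4 of the 9 windows kept a ratio of at least 2, against 39.8% of cold windows. The interval of Cpt1a without this scaling overlapped neither of the other intervals, and the intervals of Ehhadh and Etfa overlapped. The 4 shared windows are all of Ehhadh and Etfa. Shared cold windows had a lower median ratio (1.88) than unshared ones (3.28), so list membership itself favours a larger ratio at Cpt1a. The difference between the genes was not tested. Over all 9 windows the ratio without it was 2.76 (2.51 to 3.04), with a mean of 14.5 FPKM at 4 °C and 5.26 FPKM at 29 °C.

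Among the 5451 genes of the cold list, 92.4% had a smaller summed ratio than Cpt1a, 41.4% a smaller one than Ehhadh and 16.6% a smaller one than Etfa. Among the 311 genes that had exactly 4 cold sites, with or without a 29 °C site, 99.0% had a smaller ratio than Cpt1a. These are ranks of pooled values and no test. Shared cold windows had a median ratio of 1.88 and unshared ones 3.28, which favours high ranks for genes without a 29 °C site. No ranking among such genes alone was made. Of the 756 genes with 4 or more cold sites, 288 (38.1%) had none in the list of 29 °C, and of all 5451 genes 3960 (72.6%) had none.

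**Figure D3:**
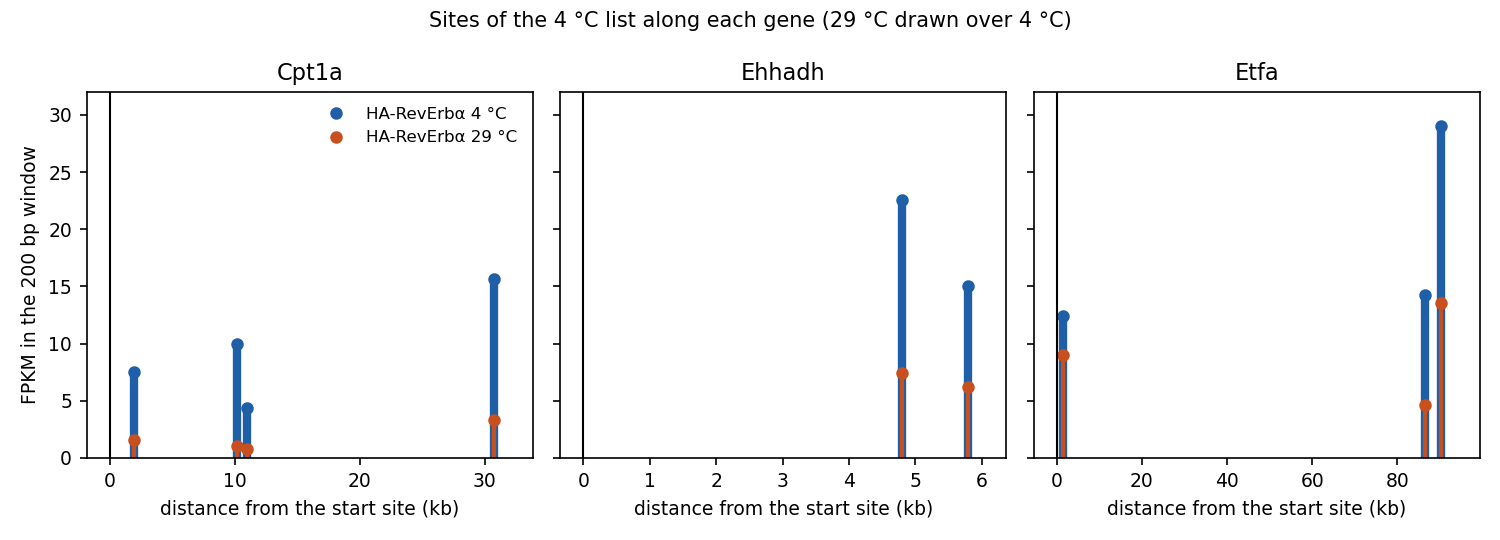
Stems give the HA-RevErbα FPKM of the cold pool and, drawn over it, of the 29 °C pool (vertical axis) by distance in kb downstream of the annotated start site (horizontal axis), 1 panel per gene and with a scale of its own along the gene. The Cpt1a sites spread from 1.95 to 30.8 kb, the Ehhadh pair lies at 4.80 and 5.79 kb, and 2 of 3 Etfa sites lie beyond 86 kb.

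Sites annotated to other genes lay close by. Within exon 14 of 19 of Cpt1a itself, the cold list held a window annotated to Mtl5 (chromosome 19, 3376355 to 3376555). The densities there were 3.85 FPKM at 4 °C and 0.67 FPKM at 29 °C, with 0.75 and 0.21 FPKM in WT and a ratio of 5.84 (2.74 to 14.3). The body of Cpt1a therefore held 5 cold sites in all, and none was in the list of 29 °C. In intron 5 of Tmem266, a cold site annotated to that gene had 12.79 and 4.20 FPKM and a ratio of 3.05 (2.21 to 4.26). Upstream of Ehhadh, a site annotated to 1300002E11Rik had 6.83 and 1.33 FPKM and a ratio of 5.18 (3.02 to 9.47). These 3 were the only other sites in either list from 50 kb before to 50 kb after the span of each gene's sites.

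Windows with the most similar values in all 4 pools were found by the Euclidean distance of log2(FPKM + 0.5) over the 11227 cold windows, 1 window per gene. Nearest to the strongest Cpt1a site were windows of Mdfi (distance 0.124 on the log2 scale), Agpat9 (0.188) and Lrp5 (0.272), none of them in the list of 29 °C. The strongest Ehhadh site was nearest to windows of Mir1904 (0.214), Mir3080 (0.263) and the clock gene Npas2 (0.297). For the strongest Etfa site they were Mir3099 (0.198), Celf2 (0.206) and Slc25a25 (0.217). Of the windows nearest to Ehhadh and Etfa, that of Npas2 was not in the list of 29 °C and the others were. The match used the 29 °C values, so list membership largely follows from it. Closeness in 4 pooled values is a description of these pools only.

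The genome of build mm9 was not used here, so no site sequence is printed. RefSeq promoter sequences (GRCm38.p6, 250 bases before to 50 after the start) were searched on both strands for the receptor half-site AGGTCA, for the RORE, the half-site with an A/T-rich stretch before it that a single Rev-Erbα binds, and for direct repeats of the half-site spaced by 2 bases (DR2) or by 1 base (DR1). Every match of the 3 longer motifs is also a match of the half-site. Each of the 3 genes had 1 promoter sequence. The half-site occurred once, at Cpt1a, on the strand opposite to the gene and 94 bases before the start. It is shown with 12 bases on each side (chr19:3323195-3323224 of GRCm38.p6, plus strand), the match in capitals, because it was the only match among the 3 genes:
Cpt1a: cagtttccttacTGACCTcctccccgcagc
The half-site was present in 16.3% of 32851 promoter sequences, the RORE in 0.219%, DR2 in 0.00913% and DR1 in 0.0396% of them. The nearest listed site of Cpt1a lay 1.95 kb from the start, outside this stretch, so the match is not tied to a measured peak.

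The pathway was read from a list of 52 genes that includes Cpt1a, Ehhadh and Etfa. Of these, 27 had a site in the cold list and 9 in the list of 29 °C, against 21.8% and 6.30% of protein-coding genes. Without the 3 genes the counts were 24 and 7 of 49. All 9 had a cold site as well. At the highest-scoring cold site of each of the 27 genes the median ratio was 3.47 (range 1.41 to 7.12), beside a median of 3.03 over all genes with a cold site. The counting interval lay above 1 at 26 of the 27 and the ratio reached 2 at 22, against 95.7% and 82.1% of all genes with a cold site, so these counts are near the background. Scaled to equal WT reads at shared sites, the ratio at Crot fell below 1, and with equal WT reads in the windows of the 29 °C list those at Crot and Acsl1 did. For Acsl1 this holds for its highest-scoring site only (score 34.3). Its sites at -85.0 and -0.768 kb scored 33.2 and 33.1, with unscaled ratios of 4.59 and 3.94. Etfa had the highest and Ehhadh the second highest score of the 27. That Etfa score, 58.0, is of the site in intron 8 of Tmem266, and the site in intron 1 of Etfa scored 24.8.

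In the carnitine shuttle, 3 of 8 genes had a cold site, Cpt1a among them, against 21.8% of protein-coding genes. Crot, the peroxisomal carnitine octanoyltransferase gene, had 4.64 FPKM at 4 °C and 3.30 FPKM at 29 °C at a shared site, a ratio of 1.41 (0.926 to 2.16) that did not differ from 1 beyond counting error. Its second cold site, at -31.5 kb and not in the list of 29 °C, had 3.77 and 0.83 FPKM and a ratio of 4.58 (2.29 to 10.1). The carnitine transporter gene Slc22a5 had 10.44 and 2.89 FPKM and a ratio of 3.62 (2.48 to 5.42). Cpt1b, the muscle-type counterpart of Cpt1a, and Cpt2 of the inner membrane had no listed site at either temperature. Both genes of the list that act on malonyl-CoA, the inhibitor of CPT1, had cold sites. At the highest-scoring ones, Acacb, whose enzyme makes it, had a ratio of 3.47 (2.42 to 5.08), and Mlycd, whose enzyme removes it, 2.65 (2.01 to 3.55). That Mlycd site was shared, and its second cold site, at 8.39 kb, was not.

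Of the 12 peroxisomal genes, 6 had a cold site, Ehhadh among them, against 21.8% of protein-coding genes. Ehhadh was the only one with a site in the list of 29 °C, which held 6.30% of protein-coding genes. The peroxisomal transporter gene Abcd3 had the largest ratio among the highest-scoring sites of the list genes, 7.12 (4.85 to 10.8), with 17.58 and 2.48 FPKM. The other cold sites of Abcd3 had ratios of 2.12 to 4.22. At the highest-scoring Abcd2 site, at -91.3 kb from the start, the ratio was 6.45 (4.06 to 10.7). The other Abcd2 cold sites, at 18.6 and 19.5 kb, had ratios of 3.81 and 5.68. At the peroxisome proliferation gene Pex11a the ratio was 4.27 (2.70 to 7.03).

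Around Etfa, the electron transfer partner gene Etfdh had a cold promoter site with 7.15 FPKM at 4 °C and 2.15 FPKM at 29 °C (ratio 3.34, 2.14 to 5.38). Etfb, the beta subunit gene, had no listed site. Of the 8 acyl-CoA dehydrogenase genes, whose enzymes feed electrons to ETF, 3 had a cold site and none a 29 °C site. Among protein-coding genes the shares were 21.8% and 6.30%, so none of 8 at 29 °C is near the background. The largest signal among them was that of the long-chain enzyme gene Acadl, with 9.18 and 3.88 FPKM (ratio 2.37, 1.68 to 3.40). Of the next 5 mitochondrial enzyme genes of the cycle, 3 had cold sites, against the same 21.8%. These were Hadh, Echs1 and Hadha, with ratios of 4.35, 3.70 and 2.77. Ech1, an isomerase for unsaturated chains, had a shared site at -1.26 kb from its start with 18.83 and 9.80 FPKM (ratio 1.92, 1.54 to 2.42).

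**Figure D4:**
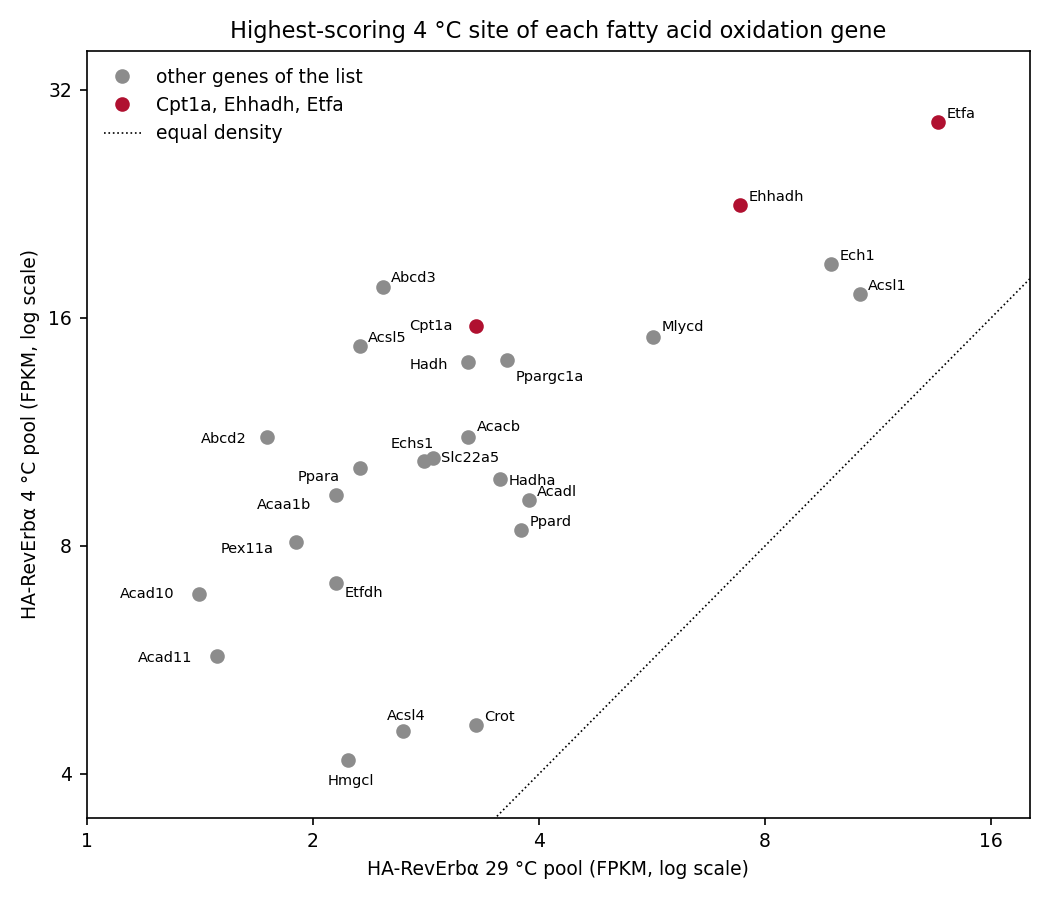
Each point is the highest-scoring cold site of an oxidation gene, for 26 of the 27 genes with a cold site, with the HA-RevErbα FPKM at 29 °C on the horizontal and at 4 °C on the vertical axis, both on log scales, and the dotted line marks equal density. All 26 points lie above the line, with Crot nearest to it at a ratio of 1.41 (Crot and Acsl1 would not under WT scaling over the windows of the 29 °C list), and Etfa and Ehhadh have the highest cold densities, 29.02 and 22.52 FPKM. The Etfa point is the site in intron 8 of Tmem266.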

How the data were processed

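Each library had a deposited aligner log, and each temperature 1 peak list on pooled libraries, per the file headers. The submitters' processing notes name HOMER 4.10, Bowtie2 2.1.0 and build mm9 but not what each was used for. The sources used here do not say how peaks were called or duplicates treated. The authors deposited FPKM for 4 pools in each 200 bp window, with 0.01 added, a score per peak and score-like differences that equal HA-RevErbα minus WT FPKM. Whether starts count from 0 or 1 is not given. Less 0.01, all FPKM values were whole multiples of 1 step per pool (100% within 0.01 FPKM), and a simulation with known reads and ratios checked the recovery and the intervals.

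Ratios used recovered reads and pool sizes (Python 3.11.15, SciPy 1.17.1). Sites were shared at an overlap of at least 1 bp. The pools held 39.5% to 49.8% of the aligned reads, and which step left out the rest is not given. In the HA-RevErbα pools 3 reads are 0.235 FPKM at 4 °C and 0.247 at 29 °C. RefSeq tables of GRCm38.p6 gave names, gene IDs and promoters; 21031 protein-coding genes with a curated transcript were the background, and all 52 list genes matched. The values of 1 list gene are not reported here. The named genes were all sites of the 3 genes, list genes with a site, and the 3 nearest windows per gene. Members, lists and motifs were chosen with earlier results of these data known. Alternatives covered the scaling, WT subtraction, the window, an added constant, distance, threshold and overlap.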

Additional observations from a re-analysis of the deposited data

Results flagged for a closer look

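At 2 Cpt1a windows the HA-RevErbα pool exceeded WT at 4 °C and fell short of it at 29 °C. At 1.95 kb the difference was 5.87 FPKM at 4 °C and -0.43 FPKM at 29 °C, and at 10.2 kb it was 8.49 and -0.01 FPKM. Each temperature has 1 pool per genotype, so the change of sign was not tested, and both 29 °C differences lay within counting error of WT (ratios of 0.784, 0.347 to 1.89, and 0.99, 0.325 to 3.59).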

How the results depend on the processing

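The ratio over the 9 windows (2.76) was 1.92 with the pools scaled to equal WT reads at shared sites, 1.62 with equal WT reads over all 29 °C windows and 3.20 after subtraction of WT. It lay between 2.61 and 2.80 under the other 4 settings. Of the single windows, the Etfa site at 1.41 kb turned from 1.38 to 0.96 and 0.81 under the first 2 of these scalings, and the other 8 stayed above 1 under every setting that gave a value. WT subtraction gave no value at the Cpt1a sites at 1.95 and 10.2 kb, where the 29 °C difference is below 0, and raised the ratio over all Cpt1a windows from 5.69 to 40.8, since the 29 °C signal is near WT. Each WT scaling factor comes from selected windows: that of all 4 °C windows (1.02) from windows chosen over WT 4 °C, that of 29 °C windows (1.71) from windows chosen over WT 29 °C, and that of shared sites (1.44) from both. The number of oxidation list genes with a 29 °C site was 9. It was 5 within 10 kb of the start site and, as a separate setting, 5 with at least 6 FPKM over WT, where fewer sites enter. With a cold site it was 27, and 21 to 26 under these settings and within 50 kb. The 4 shared sites were also 4 at an overlap of 100 bp. No paired analysis was possible because every site value is that of a pool, so no library could be left out either. Depth limits the Cpt1a values: at 29 °C each window rests on 9 to 40 HA-RevErbα and 0 to 14 WT reads, and the 4 windows together on 26 WT reads at 4 °C.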

Other observations

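Among other genes that act on fatty acid oxidation, Ppard, a nuclear receptor gene, had a site in intron 1 that was in the list of 29 °C and overlapped no cold site (chromosome 17, 28371706 to 28371906). Its densities were 4.79 FPKM at 4 °C and 5.77 FPKM at 29 °C, against 2.41 and 0.81 FPKM in the WT pools, a ratio of 0.831 (0.580 to 1.19). The 2 cold sites of Ppard lay further into the gene, at 3.71 and 8.32 kb, with ratios of 2.22 (1.56 to 3.21) and 6.67 (3.42 to 14.5). Acsl1, the acyl-CoA synthetase gene that activates long-chain fatty acids, had 6 cold sites, more than any other gene of the list. Its sites at -83.8 and -85.0 kb from the start had almost equal cold densities of 17.18 and 16.63 FPKM but 10.70 and 3.63 FPKM at 29 °C, with ratios of 1.61 and 4.59.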
